A study of Mus musculus with 6 samples.

Results

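The NK lectin-like receptors are named Klr in the mouse, and every gene whose symbol starts with Klr was taken from an RNA-Seq count table of sorted Tregs. The table held 10 such genes among 13709 rows: Klrc1, Klrc2, Klrc3, Klrd1, Klrk1, Klre1, Klri2, Klrb1c, Klra2 and Klrg1. Tregs are the Foxp3-expressing CD4+ T cells that hold other T cells in check. The WT group was 3 samples from Foxp3Cre mice and the KO group 3 samples from Foxp3Cre Zfp335fl/fl mice, all C57BL/6 and, per the study's methods, 2 weeks old. The paper reports that these KO mice developed lethal autoimmune inflammation in early life. It attributes the changed Treg and helper T cell signatures of KO Tregs to inflammation and not to an intrinsic effect. The part of inflammation in the differences below was not tested. Both groups carried the Foxp3Cre allele, in which YFP and Cre recombinase are made from the Foxp3 locus, so that YFP marks Foxp3-expressing cells and Cre deletes the floxed Zfp335 gene in them. The cells were sorted as CD4+YFP+CD25+, and the labels disagreed on whether they came from lymph nodes or spleen. Whether a sample was 1 mouse or several was not stated, so the p-values below measure only the spread between these samples, which may be technical. The family was selected on the fold changes of KO over WT in these same samples, with Klrc1 known to be among the largest rises, so its levels, fold changes and calls are given as a description and support nothing by themselves.

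Klr proteins are C-type lectin-like receptors of the cell surface, known best from NK cells, where they weigh signals from healthy and stressed cells. CD94, encoded by Klrd1, pairs with an NKG2 chain encoded by a Klrc gene, and the pair reads the MHC class I molecule Qa-1. NKG2A, encoded by Klrc1, inhibits, whereas NKG2C and NKG2E, encoded by Klrc2 and Klrc3, activate through an adaptor. NKG2D, encoded by Klrk1, is an activating receptor for ligands that stressed cells display. KLRG1 is an inhibitory receptor for cadherins and is known as a marker of effector Tregs.

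Sample totals ranged from 32032631 to 40728419 counts, at which the smallest level told from 0, taken as 3 counts, lay between 0.0747 and 0.0913 CPM (counts per 1000000 of a library total scaled by TMM, the trimmed mean of M values). Intervals and limits given below cover counting error only. The targeted gene Zfp335 was at 94.3 to 103 CPM in WT and 37.0 to 40.2 CPM in KO, with log2 fold change -1.37 (SE 0.07, edgeR adjusted p 2.14e-05), in the direction the labels give. Where the labelled Treg identity was checked, the summed level of 8 Treg markers came to 4730 to 5720 CPM in WT and 3800 to 3920 CPM in KO. Foxp3 itself was at 642 to 1190 CPM in WT and 460 to 472 CPM in KO, and was called lower (log2 fold change -0.88, adjusted p 0.0122). It was not called without WT replicate 3, where the fold change was under 1.5 (log2 fold change -0.57, edgeR adjusted p 1.27e-06). Nor was it called when glmTreat tested against a 1.5-fold change (adjusted p 0.203). WT replicate 3 stood apart. The median squared difference over genes between this sample and the other WT samples was 25.8 and 26.29 times that of sampling noise. It was scaled by sample totals without TMM, so part of it can be a difference in scaling. The TMM factors were 1.0366, 1.0254 and 0.9796 in WT replicates 1 to 3, and 0.986 to 0.9874 in KO. The same measure was 10.05 for WT replicates 1 and 2, 5.25 to 6.07 within KO, and 46.44 to 53.38 between genotypes.

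Calls required a fold change over 1.5, p under 0.05 and a Benjamini-Hochberg adjusted p under 0.1 in edgeR's quasi-likelihood test over 13594 genes. All 10 Klr genes passed the low-count filter. Of these, 8 were called higher in KO, Klrg1 was called lower, and Klra2 was not called. Over all genes tested, 24.4% were called, 11.9% higher and 12.5% lower. In all 10 Klr genes the 3 KO values did not overlap the 3 WT values, as in 53.8% of all genes. Since the family was proposed from this contrast, nothing is read from these shares. The median log2 fold change of the 10 genes was 5.43 as fitted and 3.74 with Klrc3 set at its lower bound and Klri2 at the lower end of its counting interval, both given below, against -0.04 over all genes. Summed over the family, expression came to 33.7 ± 4.46 CPM in WT and 111 ± 3.18 CPM in KO (SD, n = 3). Without Klrg1, the sum came to 3.95 ± 1.20 CPM in WT and 95.9 ± 3.59 CPM in KO, which was 24.2-fold higher.

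**Figure D1:**
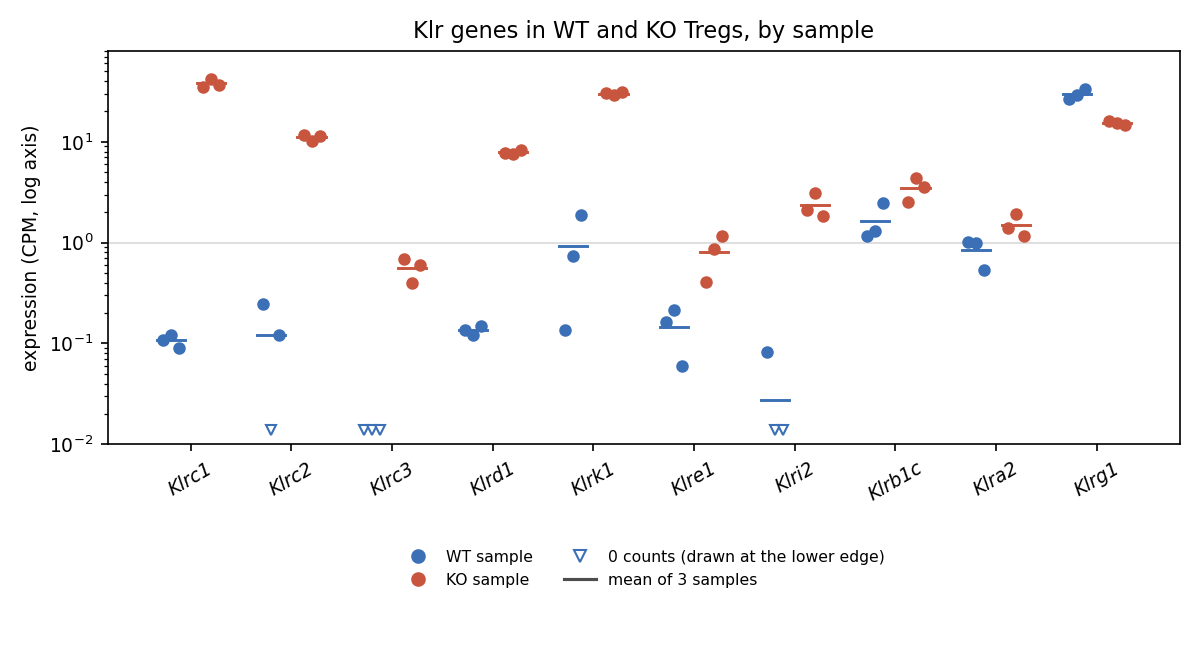
Expression of the 10 Klr genes (horizontal axis) in CPM on a log axis, with 1 point per sample, WT in blue and KO in red, and a bar at the mean of 3 samples. Open triangles are samples with 0 counts. Klrc1 lay near the floor in WT and at 35.3 to 41.9 CPM in KO, whereas Klrg1 alone had its KO points below its WT points.

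The CD94/NKG2 genes include the member with the largest fitted difference. Klrc1 (NKG2A) was at 0.109, 0.122 and 0.0901 CPM in WT replicates 1 to 3, from 4, 4 and 3 counts. In KO replicates 1 to 3 it was at 35.3, 41.9 and 37.0 CPM, from 1290, 1683 and 1305 counts. The WT samples were near the counting floor and the KO samples lay close together, with a log2 fold change of 8.43 (SE 0.18). By the fitted values, this was the 13th-ranked rise of 13594 genes. Klrc2 (NKG2C) was at 0.244, 0 and 0.12 CPM in WT and 11.8, 10.1 and 11.4 CPM in KO. Its log2 fold change was 6.43 (SE 0.55), and 7.44 without WT replicate 1, which held 9 of the 13 WT counts. Klrc3 (NKG2E) was without counts in WT and had 25, 16 and 21 counts in KO, or 0.684, 0.398 and 0.596 CPM. Against a floor of 3 counts per library it was at least 6.38-fold higher in KO. Its sum of 62 counts lay just above the smallest sum of any row, which was 60.

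Klrd1 (CD94), the chain that every NKG2 receptor of this kind needs, was at 0.136, 0.122 and 0.15 CPM in WT and 7.75, 7.57 and 8.23 CPM in KO. The log2 fold change of Klrd1 was 5.81 (SE 0.26). Both chains of the heterodimer were thus near the floor in WT and well above it in KO. Per kilobase of 1 coding transcript, the level of the 3 Klrc genes together was 3.48 ± 0.21 times that of Klrd1 in KO (SD, n = 3), with 3.44, 3.70 and 3.29 in KO replicates 1 to 3. With the length of all annotated exons in place of a single transcript, this ratio of levels was 3.58 ± 0.34. No such ratio is given for WT, where both sums rest on a few counts.

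The 3 Klrc genes are near copies, which makes their separate counts uncertain. Over the longest coding sequences of GENCODE M21, Klrc2 and Klrc3 were 94.89% identical, Klrc1 and Klrc3 84.98%, and Klrc1 and Klrc2 83.12%, whereas no other pair of the 10 genes passed 60.57%. Of the 100-base windows of the transcript, 15.9% in Klrc1, 17.0% in Klrc2 and 20.9% in Klrc3 occurred identically in another gene, which was another Klrc gene each time. Since the authors kept 1 alignment per read, reads from such windows can be put on the wrong copy. The start of the coding sequence encodes the cytoplasmic tail, which carries the inhibitory motif in NKG2A, and is shown here for that reason. Capitals mark bases that differ from Klrc1 at the same position, counted without gaps, so that an insertion or deletion counts as many differences. They were 60 of 90 in Klrc2 and 59 of 90 in Klrc3. All 3 lie on the minus strand of GRCm38, at chr6:129678821-129678910, chr6:129660467-129660556 and chr6:129643199-129643288.
Klrc1: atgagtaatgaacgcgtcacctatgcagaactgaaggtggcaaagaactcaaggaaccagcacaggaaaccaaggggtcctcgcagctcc
Klrc2: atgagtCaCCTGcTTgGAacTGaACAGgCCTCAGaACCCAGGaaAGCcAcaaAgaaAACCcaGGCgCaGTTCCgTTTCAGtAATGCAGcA
Klrc3: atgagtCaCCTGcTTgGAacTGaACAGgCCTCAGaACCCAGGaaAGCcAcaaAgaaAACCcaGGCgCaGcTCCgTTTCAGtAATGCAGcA

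The opposite end of the coding sequence holds a stretch in which reads that lie wholly within it cannot be told apart. The shared windows counted above are not confined to this stretch. The last 103 coding bases of Klrc1, on the minus strand at chr6:129674859-129674961 (GRCm38), occur letter for letter in Klrc2, and are printed because they are the longest coding stretch that the inhibitory and the activating gene share.
Klrc1 and Klrc2: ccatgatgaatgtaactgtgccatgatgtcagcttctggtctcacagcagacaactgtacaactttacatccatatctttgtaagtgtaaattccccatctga

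Summed over the 3 Klrc genes, which does not depend on how reads were split among them, expression was 0.353, 0.122 and 0.210 CPM in WT and 47.8, 52.4 and 49.0 CPM in KO. The mean was 218-fold higher in KO, on 24 counts in all WT samples together. The sum and each of the 3 genes pointed the same way.

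Klrk1 (NKG2D) was, with Klrc1, the member with the most counts in KO. It was at 0.136, 0.731 and 1.89 CPM in WT, from 5, 24 and 63 counts, and at 30.2, 29.1 and 31.1 CPM in KO. WT replicate 3 was the highest of the WT samples and still far below every KO sample. The log2 fold change was 5.05 (SE 0.59), and 6.15 without WT replicate 3. No 100-base window of the Klrk1 transcript occurred in another gene. Among the KO samples the spread of Klrk1 was 3.22% of the mean, close to the 2.98% that counting alone gives.

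Klre1 and Klri2 encode receptor chains that pair with each other. Klri2 had 3 counts in WT replicate 1 and none in the other WT samples, against 78, 125 and 65 counts in KO, or 2.13, 3.11 and 1.84 CPM. The ratio of its pooled counts per library total was 82.1 (95% exact counting interval 27.8 to 401). Klre1 was at 0.163, 0.213 and 0.0601 CPM in WT and 0.411, 0.871 and 1.16 CPM in KO, with log2 fold change 2.46 (SE 0.65). It stayed near 1 CPM in KO and was the most uneven member there, with a spread of 46.6% of its mean against 18.2% from counting.

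Klrb1c and Klra2 differed less than the genes above. Klrb1c encodes NK1.1, an activating receptor used to mark NK cells, and was at 1.17, 1.31 and 2.46 CPM in WT and 2.52, 4.36 and 3.57 CPM in KO. Its highest WT sample, replicate 3, lay just under its lowest KO sample, replicate 1. The log2 fold change of Klrb1c was 1.08 (SE 0.38), and it was not called without WT replicate 1 (0.88), WT replicate 2 (0.94), KO replicate 2 (0.89) or KO replicate 3 (1.06). Klrb1c is the single member that another annotated gene overlaps, the readthrough gene Gm44511 on the same strand, and 21.2% of its 100-base windows occurred in Gm44511 or Klrb1a, so its value is uncertain. Klra2 encodes Ly49B, a member of the Ly49 receptors that is known from myeloid cells. It was at 1.01, 1.0 and 0.541 CPM in WT and 1.4, 1.92 and 1.16 CPM in KO, with log2 fold change 0.81 (SE 0.42), and was not called.

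Klrg1 went the other way. Its level was 26.7, 29.3 and 33.2 CPM in WT and 16.0, 15.2 and 14.6 CPM in KO, so that the highest KO sample lay under the lowest WT sample. Means were 29.8 ± 3.28 CPM in WT and 15.3 ± 0.71 CPM in KO (SD, n = 3), and KO held 51.3% of the WT level (log2 fold change -0.96, SE 0.11). Klrg1 was the only one of the 10 genes with a mean above 2 CPM in WT. In bulk RNA, fewer cells of a type and less RNA per cell cannot be told apart.

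The make-up of the family thus differed between genotypes. Levels of different genes were compared per kilobase of the transcript with the longest coding sequence. On that scale Klrg1 made up 89.3%, 88.8% and 86.0% of all Klr level in WT and 14.9%, 13.7% and 13.3% in KO. Klrk1 made up 30.7 ± 1.15% in KO, Klrc1 24.8 ± 1.95%, Klrc2 12.5 ± 1.14% and Klrd1 11 ± 0.49% (SD, n = 3). The order of Klrk1 and Klrc1 depended on the length used. With the length of all annotated exons, Klrc1 made up 41.9 ± 2.26% and Klrk1 9.17 ± 0.57% in KO, and Klrg1 93.9 ± 0.23% in WT and 23.6 ± 1.57% in KO. By either length, Klrg1 was the highest member in WT and was below Klrc1 in KO.

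**Figure D2:**
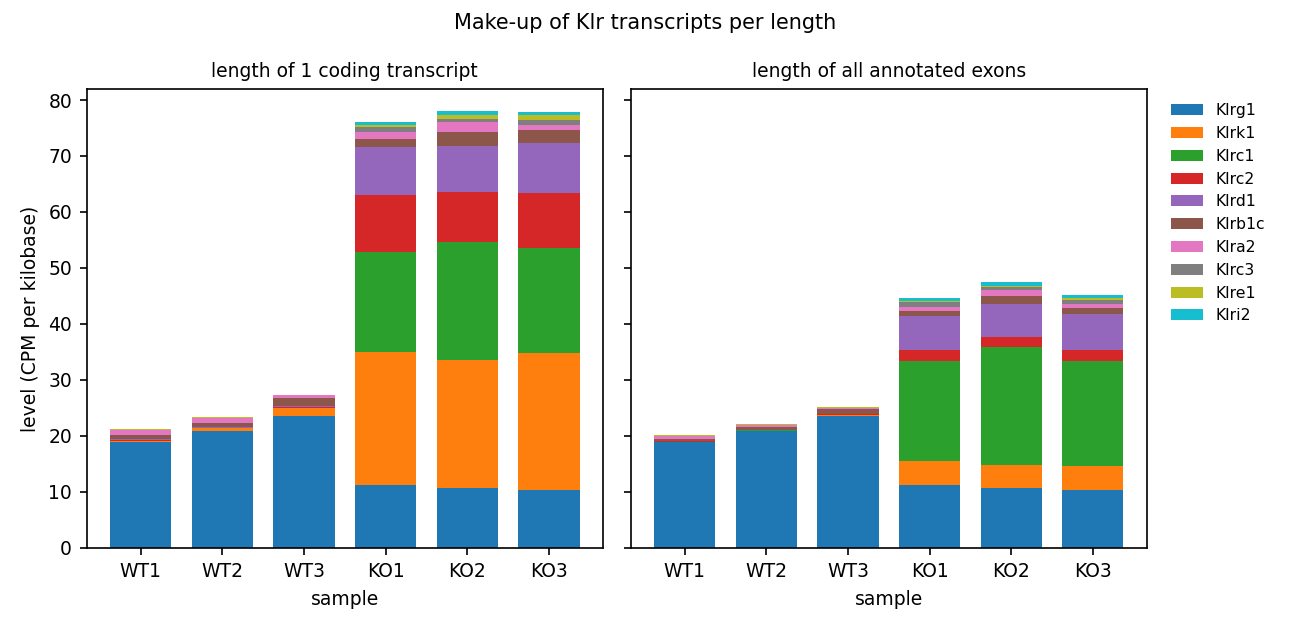
Level of each Klr gene in CPM per kilobase (vertical axis), stacked for each of the 3 WT and 3 KO samples, with the length of 1 coding transcript (left) and of all annotated exons (right). Klrg1 fills most of each WT bar in both panels, and the share of Klrk1 in KO depends on the length used.

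Of the 10 genes, 9 lie in the NK gene complex, which spans chr6:128609227-131247362 (GRCm38) between the outermost genes of the Klra, Klrb, Klrc, Klrd, Klre, Klri and Klrk groups. Klrg1 lies outside it on the same chromosome, at chr6:122270596-122282882. The annotation has 24 protein-coding Klr genes in the complex, and 15 of them were not analysed here, including all Klra genes but Klra2. A run of 8 neighbouring Klr genes, from Klre1 to Klri2 at chr6:129577905-129740484, spans 163 kb with no other protein-coding gene between them. The table held 7 of these 8, and all 7 were called higher in KO, against 11.9% of all genes. The ends of the run were set with the calls known, so nothing is read from that count. Klrb1c and Klra2, with the smallest differences of the 9 genes in the complex, lie outside that run. Clec7a and Clec2e, which are no Klr genes and lie outside it, had larger log2 fold changes (4.27 and 4.01) than Klre1 within it (2.46). Genes of the complex that are no Klr genes show whether its other parts differed too. Of 8 such genes tested, 3 were called higher, 1 was called lower and 4 were not called, against 11.9% higher and 12.5% lower over all genes. Clec7a, which encodes the fungal glucan receptor Dectin-1, was at 0.190, 0.0913 and 0.270 CPM in WT and 3.42, 3.63 and 3.77 CPM in KO, with log2 fold change 4.27 (edgeR adjusted p 0.000289). Gabarapl1, an autophagy gene and the nearest of the 8 to Klre1, was at 17.0 to 19.0 CPM in WT and 24.4 to 26.2 CPM in KO and was not called (log2 fold change 0.49, adjusted p 0.0049), since the fold change was under 1.5. Clec12a was called higher (log2 fold change 1.31, adjusted p 0.0318), but not without KO replicate 1 (1.18) or KO replicate 2 (1.16). Cd69, an activation marker, was at 131, 147 and 363 CPM in WT and 250, 264 and 252 CPM in KO, with log2 fold change 0.26 (adjusted p 0.603), and was called higher without WT replicate 3 (0.88, adjusted p 2.65e-08).

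**Figure D3:**
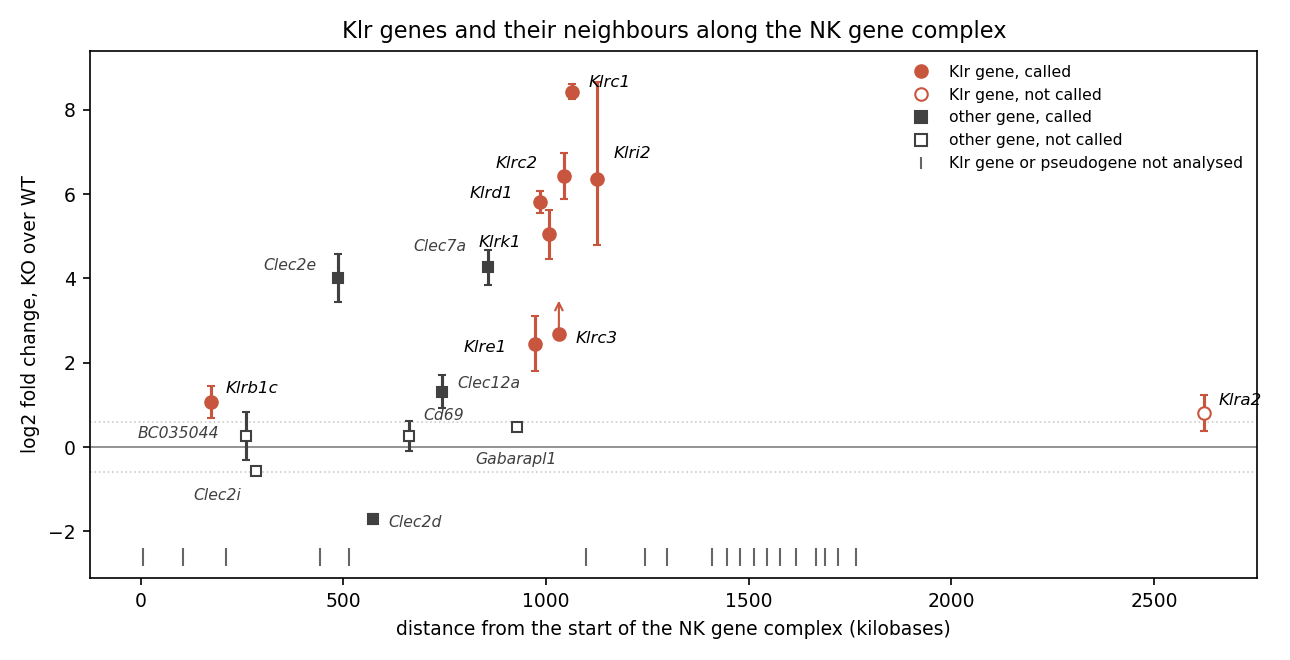
Log2 fold change of KO over WT (vertical axis) against the distance from the start of the NK gene complex in kilobases, for 9 Klr genes (circles) and 8 other tested genes (squares), filled where called. Bars are SE, except for Klri2, where value and bar are the ratio of pooled counts and its 95% counting interval, and the arrow marks the lower bound of Klrc3. Dotted lines mark 1.5-fold. The 7 genes from Klre1 to Klri2 stand together above Klrb1c and Klra2.

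Promoters were examined because neighbouring members moved together. RefSeq promoters of GRCm38.p6 were matched for 7 members, in 9 windows of 250 bases upstream of a RefSeq start, and Klrd1, Klrg1 and Klri2 had no entry. Windows of Klrb1c, Klrc2, Klrc3 and Klre1 reach into the gene as GENCODE M21 annotates it, so they can hold transcribed bases. Short motifs of 3 factor families were searched on both strands: TGTGGT of the Runx factors, GGTGTG of the T-box factors and AGATAA of the GATA factors. The Runx and T-box letters can overlap in a sequence, which happened in no member. The Runx letters occurred in 6 of 7 members (7 of 9 windows), against 14.2% of 27025 promoters, for which a single window per gene was taken. The windows of Klrc2 overlap and hold the same letters, so the count of windows includes these letters more than once. The 6 were Klrb1c, Klrc1, Klrc2, Klrc3, Klre1 and Klrk1. Klrb1c and Klre1, with smaller log2 fold changes (1.08 and 2.46), thus held the letters too. The T-box letters occurred in 0 of 7, against 16.2% of promoters, and the GATA letters in 0 of 7, against 10.3%. The Klrc2 and Klrc3 promoters were 98.56% identical over the bases they share, so they are not separate instances. Klrc1 and Klrk1, with the most counts in KO, are shown beside Klra2, the matched member without the Runx letters, which was not called. A relation of the letters to the fold changes was not tested. Capitals mark the Runx letters or their reverse complement, and each promoter is read on the minus strand, at chr6:129678974-129679223, chr6:129623865-129624114 and chr6:131247363-131247612 (GRCm38.p6). A match of letters is a description and shows no binding.
Klrc1: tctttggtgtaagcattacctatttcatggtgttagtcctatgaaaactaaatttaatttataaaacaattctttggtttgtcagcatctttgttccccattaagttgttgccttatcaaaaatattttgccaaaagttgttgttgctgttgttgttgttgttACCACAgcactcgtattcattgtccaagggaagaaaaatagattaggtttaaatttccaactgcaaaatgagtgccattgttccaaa
Klrk1: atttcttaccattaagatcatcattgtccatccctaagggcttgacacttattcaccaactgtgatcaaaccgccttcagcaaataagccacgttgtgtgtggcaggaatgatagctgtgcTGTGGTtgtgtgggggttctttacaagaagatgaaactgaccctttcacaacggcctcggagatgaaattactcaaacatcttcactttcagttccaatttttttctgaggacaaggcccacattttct
Klra2: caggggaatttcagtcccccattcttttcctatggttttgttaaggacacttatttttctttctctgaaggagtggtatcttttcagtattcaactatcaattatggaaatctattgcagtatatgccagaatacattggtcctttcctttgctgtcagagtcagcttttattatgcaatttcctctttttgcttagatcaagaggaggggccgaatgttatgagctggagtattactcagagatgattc

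Klr receptors signal through adaptors and phosphatases. Of 12 adaptor and signalling genes listed, all were tested, and 2 were called higher, 1 lower and 9 not. Their median log2 fold change was 0.07 against -0.04 over all genes. As 24.4% of all genes were called, nothing is read from these counts about the adaptors as a group. Hcst, which encodes DAP10, the adaptor of NKG2D, was at 25.6, 34.0 and 20.2 CPM in WT and 16.5, 16.4 and 14.4 CPM in KO. It was called lower (log2 fold change -0.75, SE 0.18, edgeR adjusted p 0.0147) while Klrk1, the receptor it serves, was higher, but not without WT replicate 2 (-0.54), where the fold change was under 1.5. Tyrobp encodes DAP12, the adaptor of the activating NKG2 chains, and was at 1.20, 1.52 and 2.49 CPM in WT and 3.23, 3.88 and 3.26 CPM in KO. It was called higher (log2 fold change 0.99, SE 0.33, adjusted p 0.0465), a call that was lost without any 1 of WT replicate 1 (0.78), WT replicate 2 (0.91), KO replicate 1 (1.04), KO replicate 2 (0.90) or KO replicate 3 (1.04). Syk, the kinase that DAP12 recruits, was at 6.22, 6.67 and 13.8 CPM in WT and 20, 19.2 and 22.5 CPM in KO, with log2 fold change 1.21 (SE 0.30, adjusted p 0.0143). Fcer1g, another such adaptor, was not called (log2 fold change 1.19, adjusted p 0.323). Its WT replicate 3, at 5.53 CPM, was far above the other WT samples, and without it Fcer1g was called higher (3.36, adjusted p 3.76e-06). Ptpn6, which encodes SHP-1, a phosphatase recruited by inhibitory receptors such as NKG2A, was at 215 to 254 CPM in WT and 171 to 187 CPM in KO and was not called, with a fold change under 1.5 (log2 fold change -0.44, adjusted p 0.00551).

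Among 21 ligand genes listed, 11 were tested, of which 3 were called higher, 1 lower and 7 not, with a median log2 fold change of 0.20. Over all genes, 11.9% were called higher and 12.5% lower. Ulbp1, which encodes the NKG2D ligand MULT1, was at 26.9, 29.1 and 18.3 CPM in WT and 45.5, 45.0 and 38.6 CPM in KO, with log2 fold change 0.80 (SE 0.17, adjusted p 0.0083). H2-T23, which encodes Qa-1, the ligand of CD94/NKG2A, was at 318, 323 and 499 CPM in WT and 520, 495 and 503 CPM in KO. H2-T23 was not called (log2 fold change 0.41, adjusted p 0.0898), and was called higher without WT replicate 3 (0.65, adjusted p 6.21e-08). Cdh1, which encodes E-cadherin, a ligand of KLRG1, was at 0.978, 0.426 and 0.421 CPM in WT and 1.89, 2.14 and 2.21 CPM in KO, with log2 fold change 1.76 (SE 0.44, adjusted p 0.015). Clec2d encodes Clr-b, a ligand of NKR-P1 receptors that lies in the NK gene complex itself, and was at 125, 163 and 131 CPM in WT and 40.2, 43.8 and 44.4 CPM in KO. It was called lower (log2 fold change -1.71, SE 0.11, adjusted p 4.36e-05). Its neighbour Clec2e, of the same family, was called higher (log2 fold change 4.01, SE 0.58, adjusted p 0.00138), at 0.0609 to 0.180 CPM in WT and 1.29 to 3.15 CPM in KO. Clec2i, which the gene BC035044 overlaps, was not called at a fold change under 1.5 (log2 fold change -0.56, adjusted p 0.00129), but was called lower without WT replicate 3 (-0.61) and without KO replicate 1 (-0.61).

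Other receptors of NK cells and transcription factors were taken as lists. Of 23 symbols of other NK receptors, 19 were tested in 20 rows, since Lilrb4a stood in 2 rows. In this list 9 rows were called higher, 2 lower and 9 not (median log2 fold change 1.04). The shares over all genes were 11.9% higher and 12.5% lower. Slamf7 was at 4.70, 4.2 and 4.03 CPM in WT and 38.5, 38.7 and 34.7 CPM in KO, with log2 fold change 3.11 (SE 0.11, adjusted p 4.57e-06). Havcr2, which encodes the inhibitory receptor TIM-3, was at 2.86 to 11.9 CPM in WT and 85.1 to 100 CPM in KO, with log2 fold change 3.93 (SE 0.52, adjusted p 0.000947, and 4.91 without WT replicate 3). Cd96 was called lower (log2 fold change -0.89, SE 0.08, adjusted p 0.000151), at 135 to 155 CPM in WT and 74.5 to 79.5 CPM in KO. Ncr1, which encodes NKp46, a receptor that defines NK cells, was at 0.543, 0.487 and 0.12 CPM in WT and 0.876, 0.697 and 1.25 CPM in KO and was not called (log2 fold change 1.28, adjusted p 0.13).

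Of 17 transcription factors tested that are known in NK and effector T cells, 6 were called higher, 3 lower and 8 not (median log2 fold change 0.08). Among all genes, 11.9% were called higher and 12.5% lower. Tbx21, which encodes T-bet, was at 6.00, 4.99 and 5.53 CPM in WT and 70.8, 74.2 and 68.8 CPM in KO, with log2 fold change 3.69 (SE 0.10, adjusted p 1.31e-06). Its relative Eomes was at 1.80 to 3.24 CPM in WT and 11.1 to 11.6 CPM in KO, with log2 fold change 2.29 (SE 0.25, adjusted p 0.000437). Zeb2, Id2, Runx3 and Gata3 were the other factors called higher, with log2 fold changes of 3.04, 2.51, 1.91 and 0.78 (adjusted p 0.000385 for Gata3 and smaller for the others). Id3 had the largest fall of the list, from 52.3 to 86.2 CPM in WT to 12.8 to 15.5 CPM in KO, with log2 fold change -2.40 (SE 0.19, adjusted p 0.000125). Tcf7 (-0.69) and Ikzf2 (-1.11) were also called lower.

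**Figure D4:**
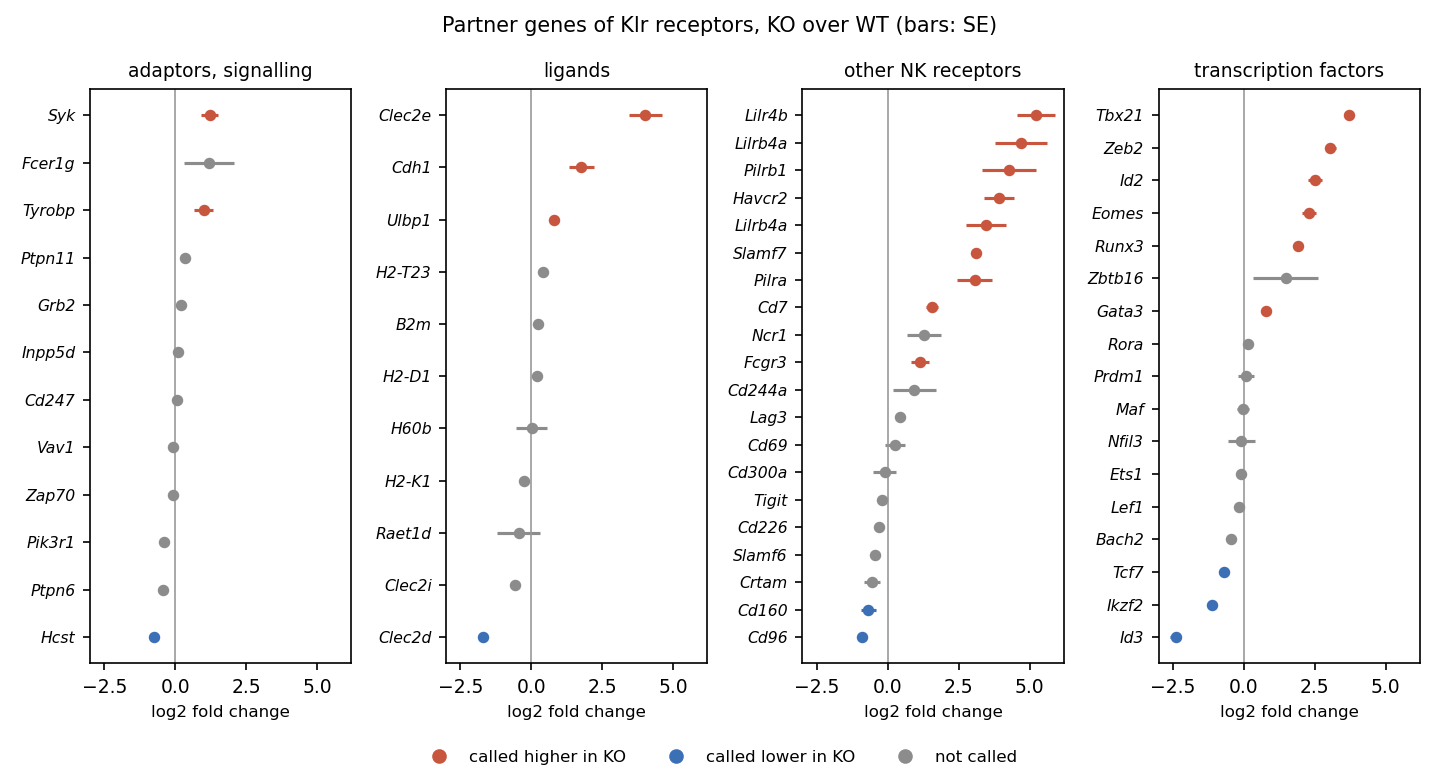
Log2 fold change of KO over WT (horizontal axes) with SE bars for the tested genes of 4 lists, in red where called higher in KO, blue where called lower and grey where not called. Hcst and Clec2d lie at the low end of their lists, and Tbx21 at the high end of the transcription factors. Pilrb1 had 3 counts in all WT samples together, so its point depends on the prior count of the fit.

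Genes known from KLRG1-positive Tregs of tissues were set beside Klrg1. Of 14 such genes, 6 were called higher, 2 lower and 6 not (median log2 fold change 0.37), against 11.9% higher and 12.5% lower over all genes. Ccr8, a chemokine receptor, fell with Klrg1, from 64.4 to 69.2 CPM in WT to 26.5 to 30.2 CPM in KO, with log2 fold change -1.24 (SE 0.08, adjusted p 4.69e-05), as did the integrin gene Itgae (-1.74, adjusted p 0.00919, and -1.08 without WT replicate 3), which the gene Haspin overlaps. Il1rl1, which encodes the IL-33 receptor ST2, was at 51.2, 55.8 and 60.1 CPM in WT and 91.6, 89.0 and 86.3 CPM in KO, with log2 fold change 0.68 (SE 0.08, adjusted p 0.000597). Gzmb, a granule protease, was at 12.1, 12.2 and 36.8 CPM in WT and 437, 446 and 438 CPM in KO, with log2 fold change 4.44 (SE 0.45, adjusted p 0.000316, and 5.18 without WT replicate 3). These genes therefore did not share 1 direction with Klrg1.

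Markers of other cell types that a sorted sample could hold were measured beside the family. Calls in each marker group stand beside shares of 11.9% higher and 12.5% lower over all genes. Of 12 NK cell markers tested that are no Klr genes, 7 were called higher, 1 lower and 4 not. Their summed level came to 47.3 to 55.9 CPM in WT and 326 to 333 CPM in KO. In KO the highest of them were Nkg7 (21.6 ± 3.73 CPM in WT and 122 ± 2.48 CPM in KO), Gzma (1.48 ± 0.84 CPM in WT and 107 ± 3.21 CPM in KO), Itga2 (11.7 ± 1.69 CPM in WT and 52.8 ± 0.74 CPM in KO) and Prf1 (2.92 ± 0.81 CPM in WT and 20.7 ± 1.36 CPM in KO), each called higher (SD, n = 3 for each mean). Xcl1 was called lower (log2 fold change -1.33, edgeR adjusted p 0.0998), but not without WT replicate 1 (-1.16), WT replicate 2 (-1.03) or any 1 KO replicate. Khdc1a (log2 fold change -1.09), Fcer1g (1.19), Cd244a (0.94) and Ncr1 (1.28) were not called. Ncr1 was at 0.12 to 0.543 CPM in WT and 0.697 to 1.25 CPM in KO, without overlap. CD8 T cell markers summed to 9.32 to 13.2 CPM in WT and 12.0 to 12.7 CPM in KO. Of 7 markers of gamma delta and NKT cells listed, 4 were tested, and Trdc, Tcrg-C1 and Tcrg-C2 had no row. The tested markers Zbtb16, Trdv4, Sox13 and Blk summed to 1.77 to 2.52 CPM in WT and 2.12 to 2.38 CPM in KO. Blk was the highest of them, with means of 1.39 CPM in WT and 0.836 CPM in KO, so this sum is a weak measure of such cells. B cell markers summed to 21.4 to 25 CPM in WT and 21.4 to 22.5 CPM in KO, and erythroid markers to 22.9 to 98.9 CPM in WT and 42.3 to 47.8 CPM in KO. The summed levels of these 4 groups overlapped between the genotypes, but single markers differed. Cd8a was called higher (log2 fold change 0.997, adjusted p 0.0665), but not without WT replicate 2 (0.70), KO replicate 1 (0.92) or KO replicate 3 (0.91). Of 7 B cell markers, Cd22 was called higher (log2 fold change 1.01, adjusted p 0.0159) and Cd79b lower (-1.26, adjusted p 0.00179). Of 8 tested markers of gamma delta, NKT and erythroid cells, edgeR called 0, 0 had an unadjusted p under 0.05, and DESeq2 called 1. Myeloid markers summed to 50 to 63.4 CPM in WT and 85.6 to 98.0 CPM in KO, with 5 of 7 called higher. Of 8 neutrophil markers listed, 6 had no row: Ly6g, Mpo, Elane, Camp, Ngp and Retnlg. The 2 neutrophil markers tested, S100a8 and S100a9, were at 0 in every WT sample and summed to 3.57 to 5.42 CPM in KO. The paper also reports high levels of both genes in a Treg subset that it calls dysfunctional. Markers of type 2 innate lymphoid cells summed to 295 to 348 CPM in WT and 471 to 509 CPM in KO, with 6 of 8 called higher and 1 lower. Among these, Gata3, Rora, Il1rl1 and Areg are also in the list of KLRG1-positive Treg genes above, so they do not mark such lymphoid cells alone. Il5 was at 0 in every WT sample and at 28.1, 30.7 and 32.1 CPM in KO, whereas Il17rb was the marker called lower (log2 fold change -1.54). The part of such cells in the levels of the Klr genes was not tested.

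Genes with a low WT level were counted beside the family. In all, 1896 genes tested had a WT mean under 1 CPM, 8 of which were Klr genes, and 372 of them (19.6%) were called higher in KO. A KO mean above 5 CPM was reached by 45 of the 1896, Klrc1, Klrk1, Klrc2 and Klrd1 among them. Genes this low in WT can pass the low-count filter through their KO counts alone, as Klrc3 did without WT counts. These counts therefore do not show how unusual the members were. For 4 members, Klrc1, Klrk1, Klrd1 and Klrg1, the genes with the most similar pattern over the 6 samples were found. The measure was Pearson's r of log2(CPM + 0.5), which 2 separated groups of 3 samples drive. For Klrc1 the most similar genes were Il5, Gm4125 and Ptgdr2, and for Klrd1 Il5, Peg10 and Ptgdr2. For Klrk1 they were M6pr, Degs1 and Ehd1, and for Klrg1 Zfp763, Hsf1 and Mmaa. Such likeness was common, since 238 genes had an r over 0.99 with Klrc1, 219 with Klrd1, 108 with Klrk1 and 85 with Klrg1.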

How the data were processed

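RNA-Seq was done on CD4+YFP+CD25+ Tregs, and groups followed the genotype in the labels. Per the study's methods, the authors filtered reads with SOAPnuke, aligned them with HISAT2 to mm10 (at most 1 alignment reported for a read) and used StringTie to quantify genes. They deposited 1 table of whole-number counts per gene, without normalization. How whole numbers were obtained, the read length, the annotation and the use of strand were not given in the sources used here, so genes that a protein-coding gene overlaps are uncertain: besides those marked in the text, Zfp335 (Pcif1), Cd247 (Pou2f1), Foxp3 (Ppp1r3f, Ccdc22) and Gata3 (4930412O13Rik, 9230102O04Rik). Counts were fitted in R 4.3.3 with edgeR 4.0.16 (filterByExpr with a minimum count of 10, TMM, quasi-likelihood F-test, two-sided, no covariate), and SE was the log2 fold change divided by the square root of F. The filter removed 115 of 13709 rows. DESeq2 1.42.0 was an alternative. The procedure was tested on simulated data. Positions and lengths came from GENCODE M21 (GRCm38, the assembly of mm10). The Klr genes, the gene lists and the rule for named genes (Zfp335, all Klr genes, tested members of the lists and of the NK gene complex, and the 3 genes most like each of 4 members) were chosen with earlier results of these data known. The length used for levels was chosen after the values were seen.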

Additional observations from a re-analysis of the deposited data

How the results depend on the processing

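Of the 10 Klr genes, 8 were called higher and 1 lower with DESeq2, size factors by relative log expression, library totals alone and no low-count filter. With at least 10 counts in every sample, 3 Klr genes remained to be tested and 1 was called higher, and 1 of 6 neighbours in the NK gene complex was called higher, because low WT counts remove the others. Klrb1c was not called with glmTreat or at an adjusted p under 0.05, which left 7 Klr genes called higher. Leaving out 1 sample in turn gave 7 to 8 Klr genes called higher and 1 lower, and 1414 to 1862 genes higher and 1453 to 1805 lower over all genes. Requiring only an adjusted p below 0.05, whatever the fold change, gave 2610 higher and 2634 lower over all genes, and glmTreat against 1.5-fold gave 941 and 745. With glmTreat, 0 adaptor and signalling genes were called higher and 0 lower, 1 other NK receptor was called lower and 3 genes of KLRG1-positive Tregs were called higher. Without a fold cutoff, 3 adaptor and signalling genes, 2 ligands and 2 neighbours were called lower, and library totals alone gave 2 ligands and 2 neighbours called lower. Leaving out 1 sample gave 1 to 3 adaptor and signalling genes higher and 0 to 1 lower, 1 to 2 ligands lower, 1 to 3 other NK receptors lower, 5 to 8 genes of KLRG1-positive Tregs higher and 1 to 2 neighbours lower. Cd247, not called, turned from 0.05 to -0.012 on the log2 scale without WT replicate 1, and ranged up to 0.117 without other samples. Apart from the settings whose construction removes genes or raises the cutoff, the cause was not tested.

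Replicate numbers are shared by the genotypes, but deviations of same-numbered samples correlated at only 0.0576, 0.0328 and -0.0042. These values gave no sign that the numbers pair the samples. They cannot exclude it, since no values of differently numbered samples are given beside them. A fit with the replicate block called 1629 genes higher and 1561 lower, 8 Klr genes higher and 1 lower, and 1 other NK receptor lower, since Cd160 lost its call (adjusted p 0.107). It called 3 adaptor and signalling genes higher, with Fcer1g added (log2 fold change 2.15, adjusted p 0.0991). In WT, 6 Klr genes were under 1 CPM in every sample, and depth limits their fold changes.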
